A study of Homo sapiens with 2 samples.

Results

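The E2F and DP genes encode the transcription factors that time entry into S phase, and the 10 human genes E2F1 to E2F8, TFDP1 and TFDP2 are described here by the HNRNPC peaks within them. A peak was taken as theirs when its summit lay in the RefSeq span of the gene on human genome build 38. By this rule 29 of 23111 peaks (0.126%) belonged to the 10 genes, and 5 of the 10 carried at least 1. The study profiled RNA bound to HNRNPC in A549 cells by sequencing of immunoprecipitated RNA (RIP-seq). A549 is an established line of human non-small cell lung cancer, and the labels name no treatment. One sample is the HNRNPC immunoprecipitate (IP), for which 5 µg of antibody were used, the other is the input, and the values used are the peaks listed for the IP. As each group is 1 library, nothing was tested between samples and all intervals are counting intervals. A peak list does not measure expression, so the level of an RNA and its binding cannot be told apart.

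E2F proteins bind DNA upstream of genes for DNA replication and the cell cycle. E2F1, E2F2 and E2F3 are the activators, which the RB protein holds back until cyclin-dependent kinases phosphorylate it. E2F4 and E2F5 act mainly as repressors with the pocket proteins RBL1 and RBL2, and E2F6 represses without pocket proteins. Each of these pairs with a DP partner, TFDP1 or TFDP2, whereas the atypical E2F7 and E2F8 have a duplicated DNA-binding domain, need no DP partner and repress E2F targets late in the cycle. HNRNPC is a nuclear RNA-binding protein with an affinity for U-rich stretches, and the series asks whether, reading N6-methyladenosine (m6A) marks, it stabilises E2F2 mRNA.

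Peaks were divided unevenly among the functional classes. The activators held 17 peaks, 10 in E2F2 and 7 in E2F3, and none in E2F1. The repressors E2F4, E2F5 and E2F6 held none. Of the atypical members E2F7 held 8 and E2F8 none, and each DP gene held 2. Among all 20037 protein-coding genes 18.4% had at least 1 peak, 6.12% had 7 or more and 3.90% had 10 or more. Thus 3 of the 10 genes, E2F2, E2F3 and E2F7, had a number of peaks reached by few protein-coding genes when length is ignored, and the other 7 had 2 or none. At the length of E2F3 its count is common, as 191 of the 1000 genes of nearest span had as many.

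**Figure D1:**
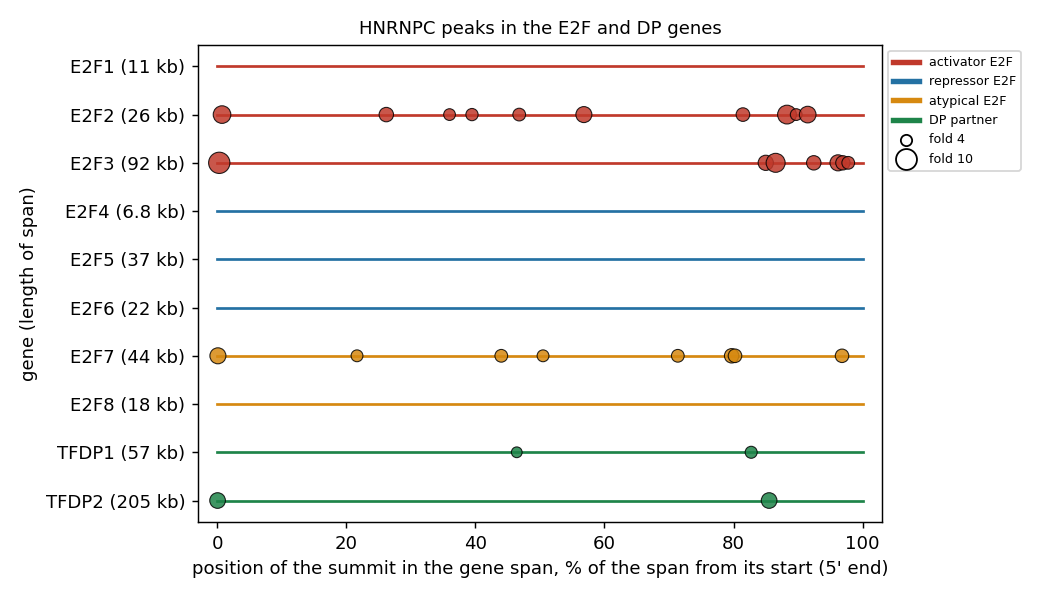
Each line is a gene span drawn from its start (0%) to its end (100%), each circle is the summit of a peak, and the area of a circle grows with the fold enrichment. E2F2, E2F3, E2F7 and TFDP2 each have a circle at the start, E2F1, E2F4, E2F5, E2F6 and E2F8 have none, and 6 of the 7 E2F3 circles lie in the last 20% of the span.

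Relative to the length of the gene, E2F2 stood first. Its span of 26022 bp held 38.4 peaks per 100 kb (95% exact Poisson interval 18.4 to 70.7). E2F7 followed with 18.05 per 100 kb (7.79 to 35.6) over 44319 bp and E2F3 with 7.62 (3.065 to 15.7) over 91836 bp. TFDP1 came to 3.52 (0.427 to 12.7) and TFDP2, the longest member at 205117 bp, to 0.975 (0.118 to 3.52). Neighbours in this order have overlapping intervals, whereas the intervals of E2F2 and E2F3, with every peak counted singly, do not overlap. Peaks of a gene lie in groups, which these intervals ignore, so they are too narrow. With peaks within 1 kb merged E2F2 had only 6 peaks. Intervals per gene were not computed for merged peaks. The separation of E2F2 from E2F3 thus holds for peaks counted singly only, and does not establish a difference in density.

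By class the activators came to 13.2 peaks per 100 kb (7.69 to 21.1), the atypical members to 12.9 (5.58 to 25.5) and the DP genes to 1.53 (0.416 to 3.91). With peaks within 1 kb merged into 1 the activators came to 11 peaks and 8.54 per 100 kb, below the 11.3 of the atypical members, so the order of these 2 classes depends on how grouped peaks are counted. All protein-coding genes together came to 1.76, and those with a peak to 6.09. For the repressors a count of 0 over 65916 bp allows up to 4.55 peaks per 100 kb, taking 3 peaks as the limit. The exact Poisson interval used for the other classes reaches higher, to 5.60, and so overlaps that of the atypical members. A class is a few genes here, and counts were uneven within the activators and the atypical members. E2F1 without a peak stands beside E2F2, and E2F8 without a peak beside E2F7. The exact Poisson intervals overlap in both pairs, so these counts do not show a difference in density within either pair. That of E2F1 reaches 33.8 and that of E2F2 starts at 18.4, and that of E2F8 reaches 20.97 and that of E2F7 starts at 7.79.

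A gene without a peak is the usual case at these lengths. For each member the 1000 protein-coding genes of nearest span were taken, without regard to expression. Of those nearest to E2F4 (6764 bp) 3.10% had a peak, and of those nearest to E2F1 (10909 bp) 6.50%. The shares were 13.3% for E2F8 (17593 bp), 13.5% for E2F6 (21787 bp) and 24.5% for E2F5 (37365 bp). With 3 peaks as the limit, the densities that a count of 0 allows are 44.35 per 100 kb for E2F4, 27.5 for E2F1, 17.05 for E2F8, 13.8 for E2F6 and 8.03 for E2F5. The upper ends of the exact Poisson intervals are higher, in the same order 54.5, 33.8, 20.97, 16.9 and 9.87. The limit for E2F1 lies above the densities of E2F7 and E2F3, so a count of 0 does not set E2F1 apart from them. It does not set E2F1 apart from E2F2 either, as the exact Poisson interval of E2F2 starts at 18.4, below the 33.8 of E2F1. No summit lay within 5 kb outside either end of any member's span.

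Among the members with peaks the count of E2F2 was the one seldom seen at its length. Of the 1000 genes of nearest span (23.6 to 28.5 kb) 161 had a peak and 3 had 10 or more. These were ZNF146 with 17, the lamin B receptor gene LBR with 13 and CCNT1, the cyclin T1 gene, with 10; they are named because the count is small. Over the 2000 nearest genes (21.5 to 31.2 kb) 24 (1.20%) had 10 or more. With q of 0.001 or less, or with peaks within 1 kb merged, E2F2 had 6 peaks. The comparison with genes of like span was not repeated under those settings, so it holds for the count of 10 only. As many peaks as E2F7 were found in 70 of its 1000 nearest genes, as many as E2F3 in 191, as many as TFDP1 in 222 and as many as TFDP2 in 317. The counts of E2F3 and of both DP genes are thus common at their length.

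**Figure D2:**
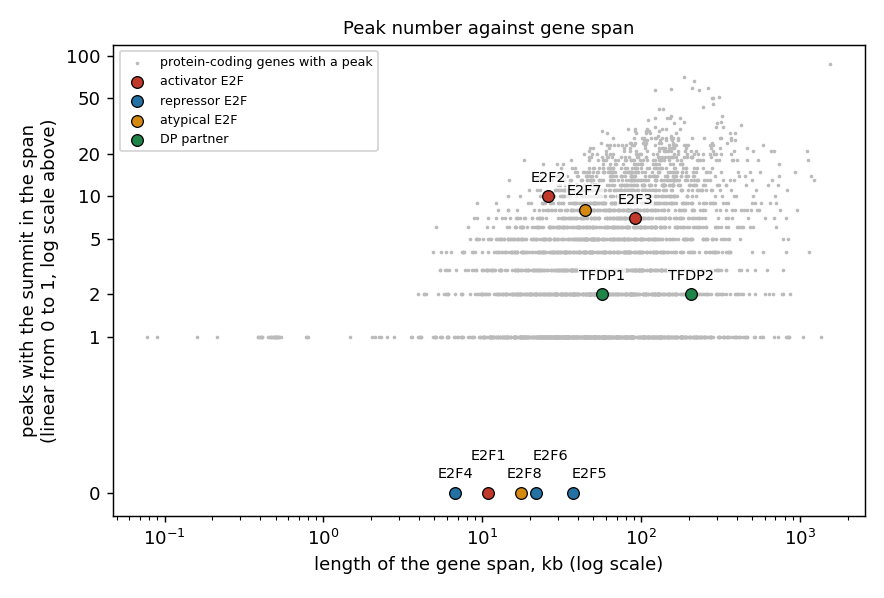
Peaks per gene against the length of the gene span in kb, for protein-coding genes with a peak (grey) and the 10 members (coloured by class; members without a peak lie at 0). E2F2 with 10 peaks lies near the upper edge of genes of its length, whereas E2F3, TFDP1 and TFDP2 lie among many genes.

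The reads behind each peak could be worked out from the list. The fold enrichment and the p-value of a peak, as the authors deposited them, follow from the number of IP reads and the control level at its summit. With a single scale of 0.536 on the IP reads, whole numbers of IP reads gave both values in all 23148 rows. This number and the control level are inferences from the deposited values. The scale corresponds to 1.87 IP reads for each control read. The commonest control level, 0.103, is also the lowest and would stand for a summit with no control read nearby, and a level of 1 or 2 for 1 or 2 control reads over the summit. Whether the input library was the control is not stated in the sources used here. Over all peaks the median was 15 IP reads, and over the 29 member peaks it was 14 (range 7 to 38). The median control level was 0.141 in both.

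E2F2 (NCBI gene 1870, chromosome 1, 23505212 to 23531233, minus strand) had the peaks with the most reads, and its highest by fold, near the 3′ end of the gene. The peak at chr1:23508049-23509846 had a fold of 8.53, from 30 IP reads over a control level of 1. At 1798 bp it was the only member peak of 1000 bp or more, a width reached by 2.53% of all peaks. A narrow peak of 70 bp at chr1:23507385-23507454 had the most reads of any member, 38 (95% exact Poisson interval 26.9 to 52.2), and a fold of 7.12 over a control level of 2. Between them the peak at chr1:23507640-23507892 had 22 reads and a fold of 4.26, also at a control level of 2. The one farthest from the end, at chr1:23510004-23510064, had 14 reads and a fold of 5.29 at a level of 0.606.

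These 4 peaks formed a group 2680 bp long, of which 2182 bp (81.4%) were covered by a peak, with gaps of 156 to 185 bp. Their summits lay 2211 to 4824 bp from the 3′ end of the span. The highest IP reads and the highest control levels of the gene were found there. The fold therefore does not follow the reads: the summit with 38 reads had a lower fold than the one with 30. The counting intervals of 30 reads (20.2 to 42.8) and 38 reads overlap.

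The other 6 E2F2 peaks had 10 to 16 reads, below 3 of the 4 peaks of this group and around the 14 reads of the one farthest from the end. The peak at the start of the gene, chr1:23530594-23531292, was 699 bp wide, with 16 reads, a control level of 0.235 and a fold of 7.75. The peak at chr1:23516346-23516540 near the middle of the span had 12 reads at the lowest control level and a fold of 6.73. In this region E2F2 also had 3 weak peaks, each over 1 control read. They lay at chr1:23519016-23519118 with 16 reads and a fold of 4.78, at chr1:23520883-23521079 with 15 reads and 4.52, and at chr1:23521847-23522087 with 14 reads and 4.25. The remaining peak, chr1:23524392-23524472, had 10 reads and a fold of 5.76. Its summit also lay within LOC101928163, a lncRNA gene of the opposite strand, and as the list has no strand the peak cannot be placed on either RNA. With q of 0.001 or less 6 of the 10 peaks were kept, and with peaks within 1 kb merged there were 6 regions.

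**Figure D3:**
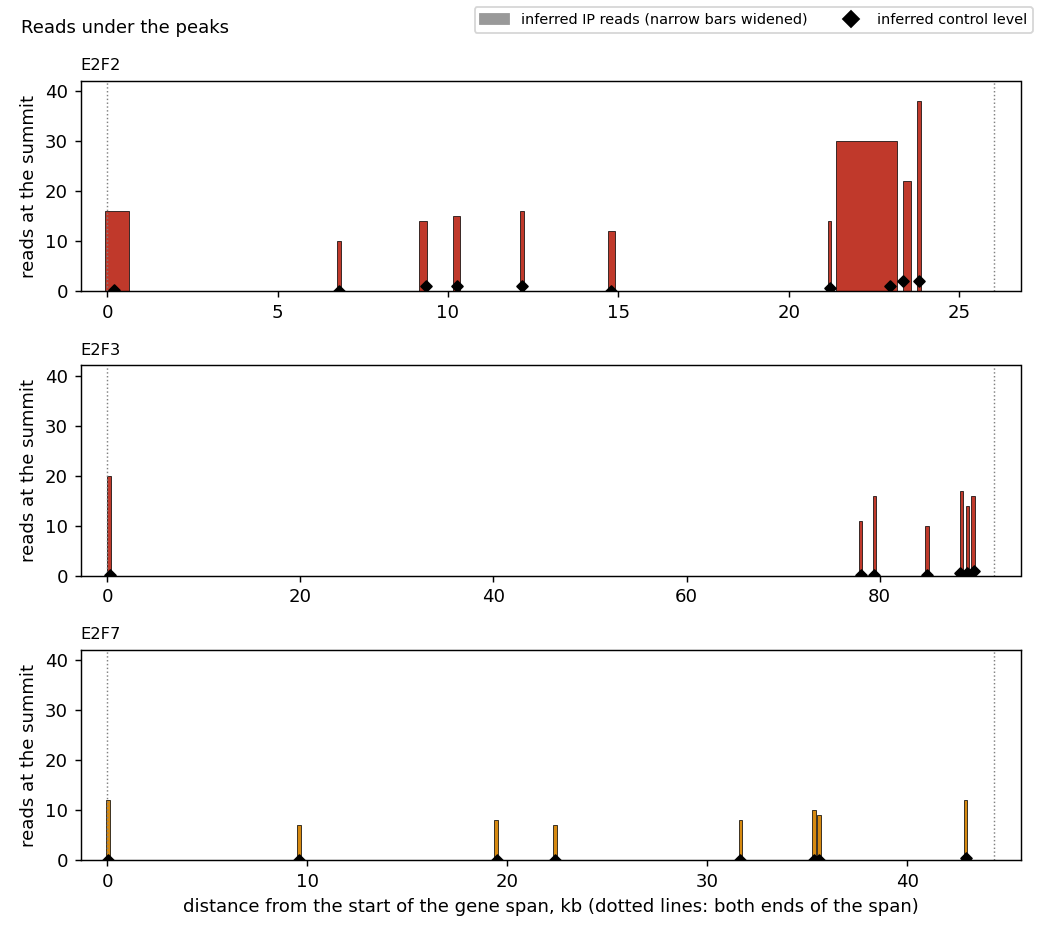
Inferred IP reads at the summit (bars; narrow peaks are widened to be visible) and inferred control level (diamonds) against the distance from the start of the gene in kb, for E2F2, E2F3 and E2F7. E2F2 reaches 38 reads near its end, E2F3 has a peak at the start and 6 near the end, and the E2F7 peaks have 7 to 12 reads over the whole gene.

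E2F3 (NCBI gene 1871, chromosome 6, 20401879 to 20493714, plus strand), the longest activator gene, carried its peaks at both ends and none between. Its strongest, chr6:20401900-20402185, began 21 bp inside the gene and had a fold of 10.3, the highest of the 29, from 20 reads at a control level of 0.141. Its summit lay also in LOC124901482, a protein-coding locus annotated on the opposite strand, so it cannot be given to E2F3 alone. A stretch of 77676 bp without a peak followed. The other 6 summits lay in the last 20% of the span, at 85.0% to 97.8% of its length.

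The first of these, at chr6:20479862-20479975, had 11 reads and a fold of 6.24, and the next, at chr6:20481238-20481425, had 16 reads and 8.67. A peak of 49 bp at chr6:20486744-20486792 had 10 reads and a fold of 5.76. All 3 lay at the lowest control level. Nearer the end, a group of 3 peaks covered 815 of 1591 bp, with summits 2038 to 3491 bp from the 3′ end of the span. Their reads were 17, 14 and 16 and their folds 6.76, 5.69 and 4.78, at control levels of 0.494, 0.494 and 1. As in E2F2, the control level was highest in the group of peaks nearest the 3′ end. In reads this group lay within the range of the other E2F3 peaks, which was 10 to 20.

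E2F7 (NCBI gene 144455, chromosome 12, 77021251 to 77065569, minus strand), the atypical repressor, had 8 small peaks spread over the gene. Their widths were 50 to 197 bp and their folds 4.30 to 6.73. The highest was at the start, chr12:77065498-77065559, with 12 reads at the lowest control level. The next 6 along the gene had 7, 8, 7, 8, 10 and 9 reads, all at that level too. The last, chr12:77022654-77022703, had 12 reads, a control level of 0.423 and a fold of 5.22, 1408 bp from the 3′ end. At the lowest control level fold depends on IP reads alone, so folds in E2F7 give the number of reads, which was small. With q of 0.001 or less the 2 peaks with 7 reads were lost.

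The DP genes had 2 peaks each, of unlike kinds. In TFDP1 (NCBI gene 7027, chromosome 13, 113584688 to 113641473, plus strand), which encodes a dimer partner of the E2F proteins, both lay over control reads. The peak at chr13:113631603-113631755 had 31 reads over a control level of 3 and a fold of 4.40, and the one at chr13:113610974-113611091 had 19 over 2 and a fold of 3.72, the lowest of the 29. TFDP2 (NCBI gene 7029, chromosome 3, 141944428 to 142149544, minus strand) encodes the other partner. Its peaks at chr3:142149315-142149491 and chr3:141974104-141974165 were alike, with 12 reads, a control level of 0.141 and a fold of 6.51 each. By reads TFDP1 had the higher peaks of the pair, and by fold TFDP2 did.

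Taking all 29 peaks, the median fold was 5.69 (quartiles 4.78 and 6.73) against 5.76 (4.79 and 7.22) for all peaks. By fold the members lay close to the list, with 11 of their 29 peaks above its median and 9 below its first quartile. The most enriched member peak, in E2F3, was equalled or exceeded by 7.66% of all peaks, and the most enriched E2F2 peak by 15.4%. Median width was 144 bp against 125 bp. A control level of 1 or more was found at 9 of the 29 summits, against 30.6% of all summits.

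**Figure D4:**
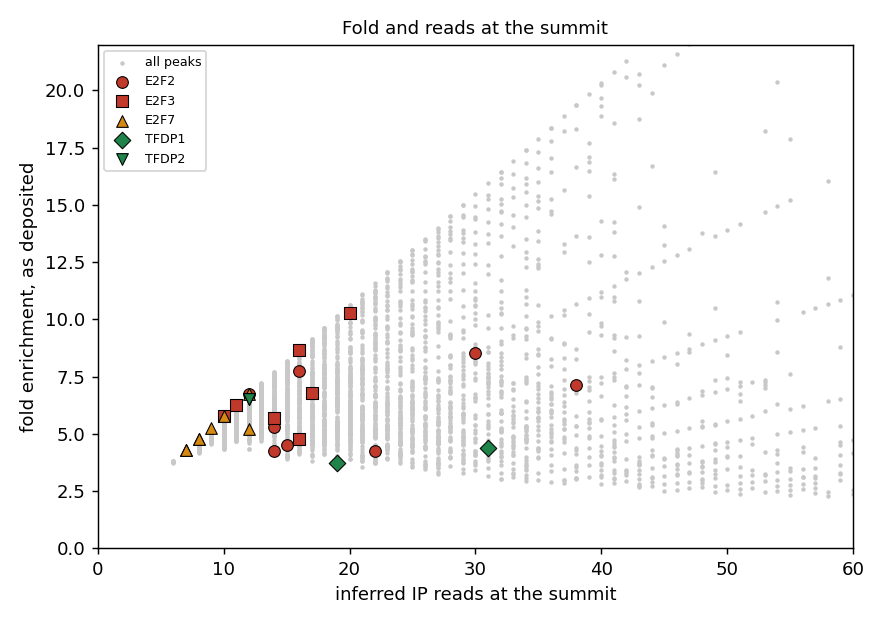
Fold enrichment as deposited against inferred IP reads at the summit, for all peaks (grey; 106 lie outside the axes) and the peaks of the 5 members that have any. The upper edge is the lowest control level, on which most E2F7 peaks lie with 7 to 10 reads; the 2 TFDP1 peaks lie near the lower edge, and the E2F2 peak with 38 reads lies below the one with 30.

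Peaks at the start of the gene were shared by members of 3 classes. A summit lay 41 bp from the start of the span in E2F7, 75 bp in TFDP2, 189 bp in E2F2 and 279 bp in E2F3, and TFDP1 had none within 26 kb. Thus 4 of the 5 members with a peak had one within 500 bp of the start, a distance chosen after the values were seen. Among 3075 protein-coding genes with a peak and a known strand 45.2% had one there, and among those with 7 or more peaks 60.9%. A start peak is therefore common in this list and is not particular to the E2F and DP genes. It was the highest by fold in E2F3 and E2F7 and level with the other peak in TFDP2, and the second highest in E2F2. Over genes with 2 or more peaks and one at the start it was the highest in 32.0%, ties included.

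The bases around these starts show how the peaks lie against the promoters. RefSeq windows of 250 bases before to 50 after a start (GRCh38 patch 14) were found for 8 of the 10 members and not for E2F5 and E2F8. The E2F2 peak reached 59 bases upstream of the annotated start, whereas the E2F3 peak began 21 bp and the E2F7 peak 10 bp downstream of it. The windows below run 5′ to 3′ on the strand of the gene, from 100 bases before the start to 30 after it. Capitals mark bases under a peak, and E2F1, which had no peak, is shown for comparison with the other activators. They lie at chr1:23531204-23531333 (E2F2, minus strand), chr6:20401779-20401908 (E2F3, plus strand), chr12:77065540-77065669 (E2F7, minus strand) and chr20:33686356-33686485 (E2F1, minus strand).

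E2F2: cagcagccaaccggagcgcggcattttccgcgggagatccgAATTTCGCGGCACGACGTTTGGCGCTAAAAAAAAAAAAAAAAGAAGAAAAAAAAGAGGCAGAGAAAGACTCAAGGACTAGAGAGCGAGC
E2F3: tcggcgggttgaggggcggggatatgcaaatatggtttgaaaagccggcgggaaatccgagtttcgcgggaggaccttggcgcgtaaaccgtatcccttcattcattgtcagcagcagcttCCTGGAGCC
E2F7: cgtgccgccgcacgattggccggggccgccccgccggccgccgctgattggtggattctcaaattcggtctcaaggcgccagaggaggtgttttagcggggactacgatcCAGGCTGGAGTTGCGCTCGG
E2F1: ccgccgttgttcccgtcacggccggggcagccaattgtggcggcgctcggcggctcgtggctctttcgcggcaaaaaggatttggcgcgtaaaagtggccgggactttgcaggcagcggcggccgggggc

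The capitals of E2F2 take in 89 of its 130 bases. They hold an E2F site, TTTGGCGC, at bases −42 to −35, and 2 runs of A, at −33 to −18 and −13 to −6, all upstream of the annotated start. E2F1 had the same letters at −20 to −13, and E2F3 had TTTCCCGC on the opposite strand at −53 to −46, outside its peak. Within 22199 such windows of protein-coding genes, TTTGGCGC was found on either strand in 0.815%, TTTCCCGC in 1.99% and the other form searched, TTTCGCGC, in 0.712%. A run of 5 U (TTTTT in the DNA letters), the kind of sequence HNRNPC is known to bind, was present on the RNA strand of the E2F3 window at bases 32 to 36, under its peak. It was not found on the RNA strand of the E2F2 or E2F7 window, where 20.7% of all windows have it. In E2F2 the A runs read as TTTTT on the opposite strand, and the list gives no strand for the peak. These matches describe the letters of the windows and are not shown to be sites.

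At the other end of the genes 14 of the 29 summits (48.3%, 95% exact Clopper-Pearson interval 29.5 to 67.5%) lay in the last 20% of the span. Of 19183 peaks in genes with a known strand 25.7% did. Of the 14, E2F3 gave 6 and E2F2 gave 4, so the share rests mainly on the activators. E2F7 had 2 of its 8 peaks there, TFDP1 1 of 2 and TFDP2 1 of 2. Within 5 kb of the end the members had 8 summits (27.6%, 12.7 to 47.2%), against 9.25% of all. These 8 were the groups of 4 in E2F2 and 3 in E2F3 and the last E2F7 peak. A distance of 5 kb is a larger part of a short span than of a long one. Genes were not matched by span in this comparison. With peaks within 1 kb merged the share in the last 20% fell to 36.4%. The intervals of both shares count grouped peaks as independent, so they are too narrow. Exons were not resolved, and whether these peaks lie in the last exon was not analysed here.

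Other genes of the pathway were taken from a list of 47, of which 17 (36.2%) had a peak, against 18.4% of all protein-coding genes. The list was chosen with earlier results of these data known, and the 2 shares were not matched by span or expression. Their difference is therefore a description only. The pocket proteins all had peaks. RB1 held 18, RBL2 17 and RBL1 13, and their best folds were 8.19, 15.5 and 10.1. Per 100 kb the 3 genes together came to 14.3 peaks, near the 13.2 of the activators. Of the MuvB core, which joins pocket proteins and E2F4 in the DREAM repressor complex, and its partner MYBL2, 3 of 6 genes had a peak, with 12 in LIN54 and 2 each in LIN9 and RBBP4. Of the cyclins and kinases that act on pocket proteins 3 of 8 did, led by CDK6 with 7 peaks, CCND1 with 2 and CDK2 with 1.

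No peak was found in the 7 kinase inhibitor genes, whose median span was 6.41 kb, or in TFDP3, another DP gene. Near that median span, 3.10% of the 1000 genes nearest to E2F4 (6764 bp) had a peak, so none in 7 short genes is the usual case. Copy number and expression of these genes in A549 were not measured here. Of 22 textbook E2F targets 8 had a peak, with 12 peaks in all and 1.21 per 100 kb. BRCA1 had 3, and the replication genes CDC6 and MCM4 had 2 each, with best folds of 4.26 and 4.13. With the genes of each group pooled, peaks were denser in the activators (13.2 per 100 kb), the atypical members (12.9) and the pocket proteins (14.3) than in the targets. The DP genes (1.53) lay near the targets, and the repressors, with 0 peaks, lay below them. The targets have a median span of 22.4 kb. These differences in density were not tested, spans differ between the groups, and expression was not measured. Single genes overlapped: E2F1 and E2F8 had no peak, and CCNA2 (13.4 per 100 kb, from 1 peak), CDC6 (11.9) and MCM4 (11.6) exceeded E2F3 (7.62), whereas BRCA1 (2.38) did not.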

How the data were processed

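RIP-seq peaks of 1 HNRNPC IP library of A549 cells were analysed; values of the input sample are not used here. Per the submitters' processing notes HISAT2, MACS2, bedtools and build hg38 were used, while versions, roles and settings are not given in the sources used here. The deposited list gives for each peak a score, a fold enrichment (a ratio), and −log10 of p and q; 10 times −log10 q, cut to a whole number, is the score. Read totals are not given. Peaks on chromosomes 1 to 22, X and Y (23111 of 23148) were assigned by summit to RefSeq spans of GRCh38 patch 14; a summit in several protein-coding spans counted for each. Strand came from the RefSeq start windows, which cover 15843 of 20037 protein-coding genes. The ends of a span were read by that strand.

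IP reads n and control level c at a summit were found from fold = (s n + 1)/(c + 1) and from p as the Poisson chance of more than the integer part of s n reads at c, with 1 scale s for the list. A match within 0.002 of −log10 p was found for all 23148 peaks; 84 had more than 1 solution, none of them in a member. That these are the caller's formulas is an inference from this fit. The procedure was tested on data simulated with these same formulas. Such a test cannot check the formulas, and the smallest read numbers of the list were not simulated. Intervals are 95% exact Poisson or Clopper-Pearson intervals and cover counting error only.

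The named genes were the 10 members, the pocket proteins and up to 3 genes with the most peaks per other pathway group. CCNA2 was named in addition as the target with the highest density. The members and lists were chosen with earlier results of these data known. Alternatives were q of 0.001 or less, fold of 4 or more, any overlap, spans extended by 5 kb, merged peaks and shared peaks left out. Work was done in Python 3.11.15 (scipy 1.17.1, numpy 2.4.6, pandas 2.3.3; plots with matplotlib 3.10.9).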

Additional observations from a re-analysis of the deposited data

How the results depend on the processing

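Of 88 values recomputed for 14 results, 82 stayed within 1.5 times the count or density, or within the 95% interval of the median or share, and 6 did not. E2F2 had 6 peaks in place of 10 with q of 0.001 or less and 6 with peaks within 1 kb merged. Merging also took the activators to 11 peaks and 8.54 per 100 kb, below the 11.3 of the atypical members under the same rule, so the order of these classes by density turns with it. The median fold was 6.73 over the best peak of each member in place of 5.69 over all, and 27.6% of member peaks lay within 5 kb of the end where 48.3% lay in the last 20% of the span. The 5 members with a peak and the 0 peaks of the repressors were the same under each of the alternatives run for them. Cuts on q or fold, merging and leaving out shared peaks cannot raise a count of 0. For the repressors those values among the 82 were thus fixed in advance, and only any overlap and extended spans could have changed the count. With peaks in several protein-coding spans left out, a setting chosen after seeing the data, E2F3 lost its start peak and 3 members had one. The alternatives for start peaks were also chosen after seeing the data. No paired analysis was possible because each group has 1 library. Many summits rest on 7 to 16 IP reads, which limits any order of peaks by height, and expression was not measured.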

Other observations

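The letters GGACT, which read as GGACU in RNA and are a common form of the m6A consensus, were found at bases 15 to 19 of the E2F2 transcript, counted from 1 at the annotated start and under its peak. They also stood at bases 2 to 6 of E2F1, which had no peak, and across the start of E2F7, from base −1 to base 4, outside its peak. Of 22199 windows of protein-coding genes 4.87% held these letters within the first 50 transcribed bases on the RNA strand, and 25.8% anywhere in the 300 bases. A match does not show that the base is methylated, and methylation was not measured here.

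TFDP2 has windows for 2 inner starts and E2F3 for 1, and no peak covered any base of these. At the outermost start of TFDP2 the peak began 53 bp downstream, beyond the 50 transcribed bases of the window.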
